A study of Rattus norvegicus with 11 samples.

Results

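The genes described are those of the synaptic vesicle and exocytosis machinery, chosen by symbol from the deposited table of gene counts. They are the numbered or lettered members of the Syt, Syn, Stx, Stxbp, Vamp, Cplx, Rims and Unc13 families, symbols that start with Sv2 or Rab3, and Syp, Snap25, Syngr1, Syngr3, Nsf, Napa, Napb and Bsn. In all, 87 of the 16811 genes of the table were members. Of these, 83 reached 10 in 3 or more libraries, the minimum for testing. Cplx4, Stx19, Syt8 and Unc13a were below that level, and Stx19 was at 0 in every library. The prefix Rab3 also takes in Rab30 to Rab39, which are not close relatives of Rab3 in function. These 10 genes are given apart.

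The libraries were made from dorsal root ganglia of Sprague-Dawley rats, in 3 groups: Sham (n = 4, right side), SNL (spinal nerve ligation, n = 4, left side) and SNL plus UNC0638 (ligation and UNC0638, n = 3, left side). Spinal nerve ligation is a rat model of neuropathic pain, and UNC0638 inhibits G9a and GLP, enzymes that methylate lysine on histone H3. There was no group with UNC0638 and no ligation, so that ligation is shared by all libraries with UNC0638, and the side of the body cannot be told apart from ligation. Age, dose, time and route were not given in the sources used here, and the labels do not say that the libraries of a group came from separate animals. The p-values then measure the spread between these libraries, which may be technical.

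Transmitter release starts with vesicles that are filled and tethered in the reserve pool by synapsins. They are attached to the active zone by Rab3 and docked there by RIM and Bassoon. Munc13 proteins (Unc13 genes) prime them by helping VAMP on the vesicle to pair with syntaxin and SNAP-25 on the plasma membrane. Many synaptotagmins sense calcium, complexins clamp and assist the assembled SNARE complex, and NSF with its SNAP adaptors (Napa, Napb) takes it apart for reuse. In sensory neurons the cell bodies in the ganglion make these proteins, most of which travel along the axon to terminals in the spinal cord and the skin. Many syntaxins and VAMPs serve traffic between the compartments of all cells, including the glia, fibroblasts and immune cells of the ganglion.

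The deposited gene counts had been scaled by the authors to make the libraries comparable in size, and are called scaled counts here. Differences are in log2(scaled count + 1) with the standard error (SE) of the fit, and a gene was called where limma's adjusted p over all 12066 genes tested was under 0.05. The totals per library were 9431352 to 11325450, from an estimated 6116041 to 24312311 reads. These 3 libraries stood apart from their groups. Sham replicate 3 and SNL replicate 3 were both the highest of their group for 10 of the 17 core neuronal release genes tested. The same held for 23.9% of all genes tested. Both were the lowest of their group for 1 of the 17, against 22.6% of all genes. In SNL plus UNC0638 replicate 1, the injury gene Atf3 stood at 265.5, against 1802 and 2393 in the other two, 4914 to 7460 in SNL and 160.2 to 177.5 in Sham. The same library held a summed 71380 of the 6 skeletal muscle markers tested, against 222.8 and 157.4 in the other two and 138 to 500.1 in Sham and SNL. Counts of members and of listed genes called between UNC0638 and SNL are also given without that library where they change.

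After ligation, 10 of 14 synaptotagmins and 9 of 17 core release genes fell (7 of the 17 without Sham replicate 3), while Syt4, Syt13 and 5 of the other Rab genes rose. The syntaxins, VAMPs and partners of general trafficking were mixed, with 6 higher and 7 lower of 23. Of the 83 members tested, 16 were called higher and 35 lower in SNL than in Sham, which is 61.4% of them. Over all genes tested, 48.2% were called (24.8% higher and 23.4% lower). At least 2-fold falls were called for 20 members, and such falls made up 7.73% of all genes tested. At least 2-fold rises were called for 8, with 12.2% of all genes. The median difference of the members was -0.35 (log2), against -0.00 for all genes, and the libraries of SNL and Sham did not overlap for 47 members, with 43.3% of all genes. Without the other Rab genes, 11 of 73 members rose, 33 fell and the median was -0.40. Without Sham replicate 3 and SNL replicate 3, 19 of the 83 rose and 39 fell, and 6615 of all 12066 genes were called. In bulk tissue, fewer cells of a type and less RNA per cell cannot be told apart.

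With UNC0638 in ligated ganglia, 17 members were higher than in SNL and 10 were lower, which is 32.5% of the 83 tested. Among all genes tested, 27.8% were called in this comparison (13.5% higher and 14.3% lower). At least 2-fold rises were called for 10 members, with 7.29% of all genes, and falls of that size for 3, with 2.94%. The libraries did not overlap for 27 members, against 37.6% of all genes. The median difference was 0.12, against 0.01 for all genes. Without SNL plus UNC0638 replicate 1, the counts were 13 higher and 14 lower. The counts were 13 and 10 without SNL replicate 1 and also without SNL plus UNC0638 replicate 2. They were 27 and 10 without SNL replicate 3, and 30 and 14 without Sham replicate 3 and SNL replicate 3. With a term in the model that sets these 2 libraries and all libraries with UNC0638 apart, called the added term here, 7 were higher and 7 lower. No label groups these libraries. The term is estimated only from how Sham replicate 3 and SNL replicate 3 differ from the rest of their groups. With it, SNL replicate 3 therefore weighs heavily in the comparison of UNC0638 with SNL. Over all 12066 genes tested, 3351 were called in the main fit and 2538 without SNL plus UNC0638 replicate 1. There were 4023 without SNL replicate 3, 5337 without Sham replicate 3 and SNL replicate 3, and 1285 with the added term. Against Sham, the ligated ganglia with UNC0638 had 11 members higher and 24 lower (42.2%, against 51.5% of all genes, 25.5% higher and 25.9% lower), with a median of -0.10 (-0.29, with 13 higher and 25 lower, without SNL plus UNC0638 replicate 1). At least 2-fold rises were called for 6 of them and falls for 7, with 14.9% and 5.17% of all genes, and 37 did not overlap, with 48.4% of all genes. The comparison with SNL shares the SNL libraries with the comparison of SNL and Sham, so that their values are set side by side and not related to each other.

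**Figure D1:**
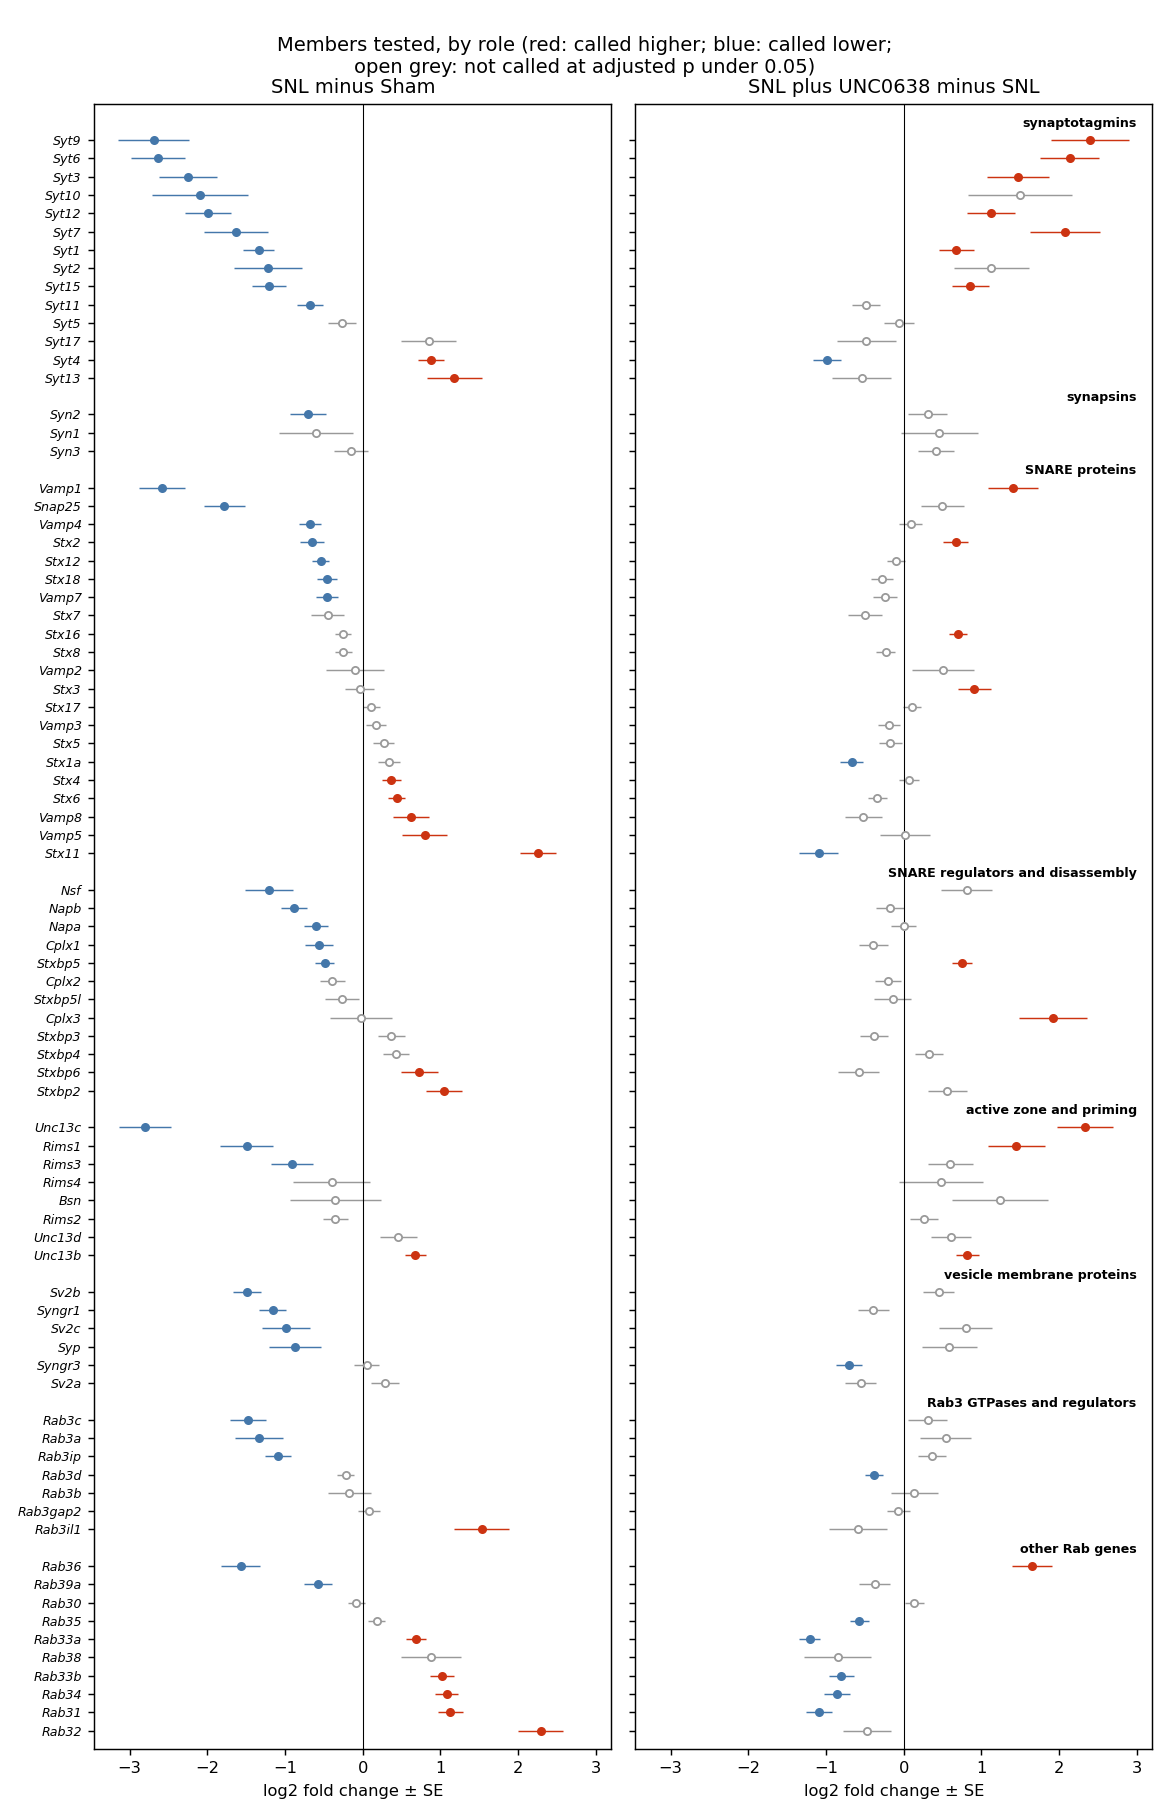
Log2 differences (x axis, ± SE) of 81 of the 83 members tested, 1 row per gene grouped by role, for SNL minus Sham (left) and SNL plus UNC0638 minus SNL (right). Filled red and blue points are genes called higher and lower, and open grey points were not called; 10 of the 14 synaptotagmins are blue in the left panel.

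Among the synaptotagmins, a family of calcium sensors and of relatives that do not bind calcium, 10 of the 14 tested fell after ligation and 2 rose, with a median of -1.28 (log2). With UNC0638, 7 were higher than in SNL and 1 was lower, with a median of 0.99. Without SNL plus UNC0638 replicate 1 these counts were 3 and 2, and with the added term 1 and 1. Over all 12066 genes tested, 2538 and 1285 were called in these fits. In the main fit, 85.7% of the 14 were called after ligation and 57.1% with UNC0638, against 48.2% and 27.8% of all genes tested. Against Sham, limma called none of the 14 higher with UNC0638 (0 at an unadjusted p under 0.05; limma-voom called Syt13) and 3 lower. Syt9, a fast calcium sensor of vesicle release, stood at 386.7, 276.1, 599.9 and 338.9 in Sham, at 30.1, 57.44, 156.9 and 42.87 in SNL, and at 550.7, 276.9 and 203.8 with UNC0638. The SNL libraries lay below all the others. Syt9 fell by 2.69 (SE 0.46, adjusted p = 0.000759) after ligation and was higher by 2.40 (SE 0.50, adjusted p = 0.00586) with UNC0638, a call lost with the added term (1.38, adjusted p = 0.059).

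Syt6 stood at 318.6, 237.4, 191.7 and 270.5 in Sham, at 26.34, 47.16, 76.59 and 25.54 in SNL, and at 283.4, 150.1 and 132.9 with UNC0638. The SNL libraries again lay below all the others. Its log2 difference was -2.63 (SE 0.35, adjusted p = 0.000196) for SNL against Sham and 2.14 (SE 0.38, adjusted p = 0.0027) for UNC0638 against SNL. Syt7, a slow, high-affinity sensor linked to asynchronous release and to lysosome and dense-core vesicle fusion, stood at 514.7, 361.3, 785.3 and 419.6 in Sham, at 96.88, 187.8, 371.7 and 95.77 in SNL, and at 994.6, 669.9 and 472.1 with UNC0638. SNL replicate 3 overlapped the lowest Sham library, and all libraries with UNC0638 were above all SNL libraries. Syt7 fell by 1.63 (SE 0.41, adjusted p = 0.00706) after ligation and was higher by 2.08 (SE 0.45, adjusted p = 0.0068) with UNC0638 than in SNL, a call lost with the added term (1.15, adjusted p = 0.0696).

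Syt1, the main sensor of fast synchronous release in forebrain neurons, stood at 1515, 1331, 1184 and 1295 in Sham, at 452.4, 566.3, 708.1 and 415.9 in SNL, and at 1176, 765.8 and 655.3 with UNC0638. All SNL libraries lay below all Sham libraries, and SNL replicate 3 lay above the lowest library with UNC0638. Syt1 fell by 1.34 (SE 0.20, adjusted p = 0.00033) after ligation. The difference with UNC0638 of 0.68 (SE 0.22, adjusted p = 0.0362) was 0.43 and not called without SNL plus UNC0638 replicate 1 (adjusted p = 0.14). Its call was also lost without Sham replicate 4, SNL replicate 1, 2 or 4, or SNL plus UNC0638 replicate 2 (0.57 to 0.74), and with the added term (0.54, adjusted p = 0.216). Syt2, the fast sensor of many hindbrain, spinal and neuromuscular synapses, stood at 1747, 1474, 4611 and 1650 in Sham, at 571.9, 1103, 1991 and 530.8 in SNL, and at 2725, 1810 and 1574 with UNC0638. Replicate 3 was the highest library of both Sham and SNL, and the groups overlapped. Its fall of 1.22 (adjusted p = 0.04) had a difference of -0.84 that was not called without Sham replicate 3 (adjusted p = 0.0966). The call was also lost without Sham replicate 1 or 4, SNL replicate 1, 2 or 4, or SNL plus UNC0638 replicate 2, with differences of -1.34 to -0.96. Its difference of 1.13 with UNC0638 was not called (adjusted p = 0.0957).

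Further synaptotagmins were lower in SNL than in Sham. Syt3 fell by 2.25 (adjusted p = 0.000602), with scaled counts of 586.2 to 1042 in Sham, 96.68 to 346.2 in SNL and 291.5 to 585.7 with UNC0638. Syt12 fell by 1.99 (adjusted p = 0.000294), from 137.7 to 263.3 in Sham to 37.62 to 78.84 in SNL. Syt15, a member without a clear calcium response, fell by 1.20 (adjusted p = 0.00114), and Syt11, which likewise lacks calcium binding, fell by 0.68 (adjusted p = 0.00609). Syt10 fell by 2.09 (adjusted p = 0.016), at low scaled counts of 4.675 to 16.69 in Sham and 0 to 5.256 in SNL, and was not called without Sham replicate 1 (difference -1.80, adjusted p = 0.0514). Syt3, Syt12 and Syt15 were higher with UNC0638 than in SNL, by 1.47, 1.12 and 0.86 (adjusted p = 0.0195, 0.0214 and 0.0215). None of these 3 calls held without SNL plus UNC0638 replicate 1 (1.24, 0.87 and 0.70, adjusted p = 0.0732, 0.0831 and 0.0786) or with the added term (0.61, 0.51 and 0.65, adjusted p = 0.238, 0.272 and 0.183). All 3 were also lost without SNL replicate 1 or SNL plus UNC0638 replicate 2, Syt12 and Syt15 without SNL replicate 2, and Syt3 and Syt12 without SNL replicate 4. Syt11 was not called against SNL (difference -0.48, adjusted p = 0.0635) and was lower with UNC0638 than in Sham (difference -1.16, adjusted p = 0.000461).

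Syt4 and Syt13 went the other way, and Syt4 was chosen for description after its values were seen. Syt4, a calcium-independent synaptotagmin known as an activity-regulated gene, stood at 5554, 6218, 4876 and 4859 in Sham, at 7997, 12730, 10170 and 9182 in SNL, and at 4448, 4434 and 6363 with UNC0638. All SNL libraries lay above all the others. It rose by 0.88 (SE 0.17, adjusted p = 0.00135) after ligation and was lower with UNC0638 (difference -0.98, SE 0.18, adjusted p = 0.00334). The log2 ratio of Syt1 to Syt4 within a library lay between -2.22 and -1.87 in Sham, between -4.49 and -3.84 in SNL and between -3.28 and -1.92 with UNC0638. This pair and those below were chosen with their values known, and their ratios are a description. Syt13 stood at 10.76 to 18.7 in Sham, 24.46 to 53.81 in SNL and 13.45 to 40.22 with UNC0638, a rise of 1.18 after ligation (adjusted p = 0.0161) that was not called without Sham replicate 4 (1.02, adjusted p = 0.0506) or SNL replicate 4 (0.99, adjusted p = 0.0522). Syt5 and Syt17 were called in no comparison.

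**Figure D2:**
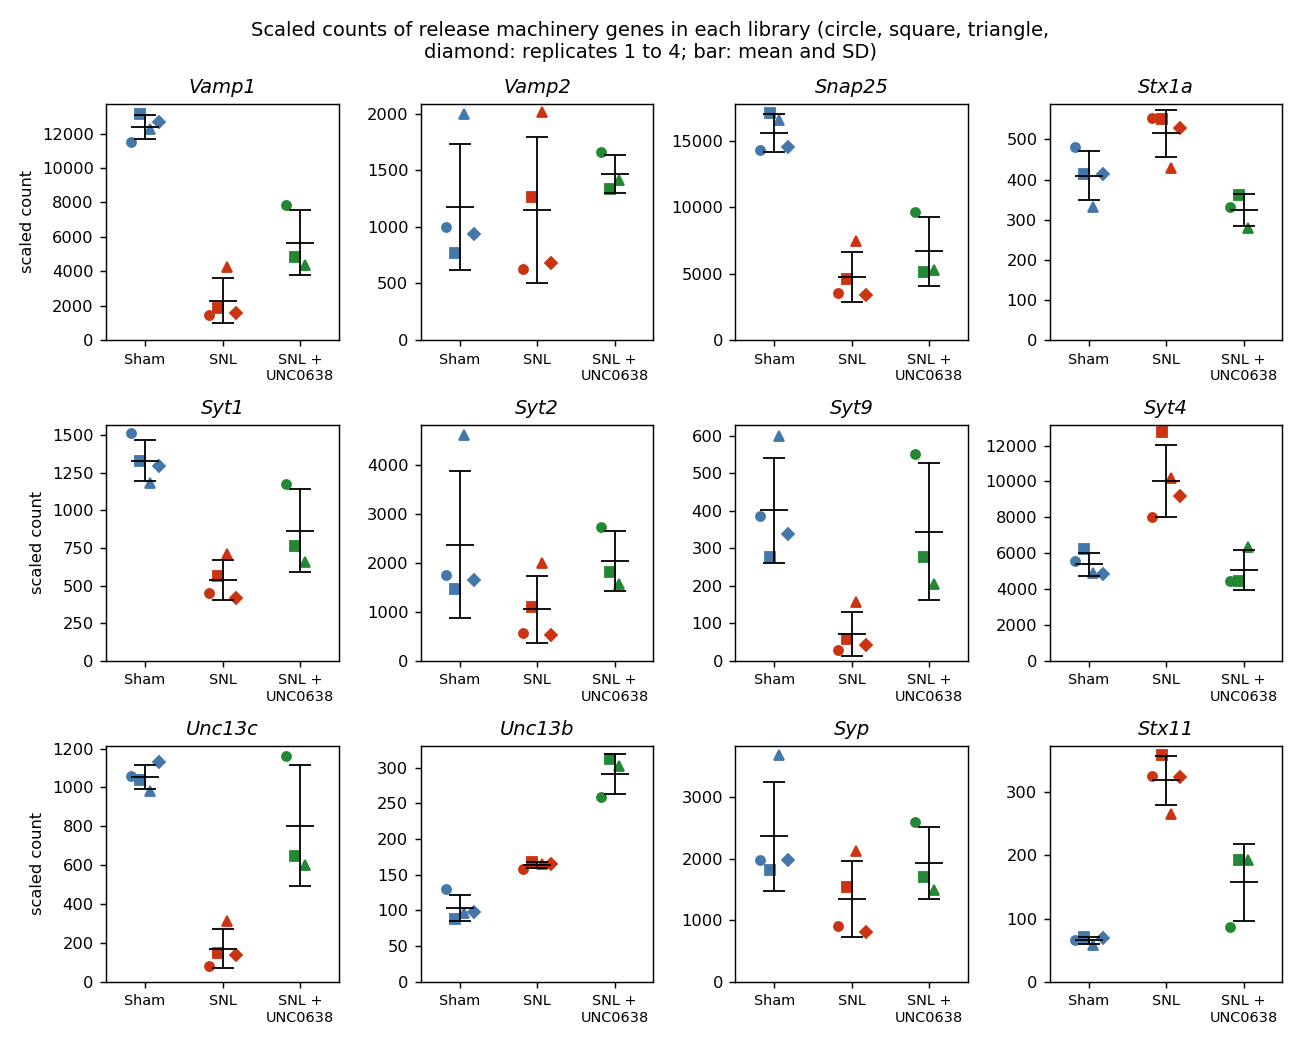
Scaled counts (y axis, from 0) of 12 members in each library of Sham (blue), SNL (red) and SNL plus UNC0638 (green), with the mean and SD of each group as bars. The SNL libraries lie below all the others for Syt9 and Unc13c and above all the others for Syt4 and Stx11, while Vamp2 spreads widely within Sham and SNL.

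The SNARE proteins form the membrane-fusing complex, and their members changed in both directions. Of the 22 tested, 5 rose and 7 fell after ligation, and with UNC0638 4 were higher and 2 lower than in SNL, as also without SNL plus UNC0638 replicate 1. In the main fit these made up 54.5% and 27.3% of the 22, against 48.2% and 27.8% of all genes tested. Against Sham, 5 were higher and 8 lower with UNC0638. Vamp1, one of the vesicle SNAREs of fast release and the prevailing one at many spinal and motor synapses, had the lowest difference of the group after ligation. It stood at 11490, 13140, 12260 and 12680 in Sham, at 1471, 1877, 4253 and 1546 in SNL, and at 7834, 4799 and 4352 with UNC0638. The 3 groups did not overlap. Vamp1 fell by 2.58 (SE 0.30, adjusted p = 0.000125) after ligation, was higher by 1.41 (SE 0.32, adjusted p = 0.00966) with UNC0638 than in SNL, and remained below Sham (difference -1.18, SE 0.32, adjusted p = 0.0103). With the added term the difference of Vamp1 between UNC0638 and SNL was 0.89 and not called (adjusted p = 0.114).

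Vamp2, the paralog that serves as the main vesicle SNARE of the forebrain, stood at 994.7, 765.7, 1998 and 936.1 in Sham, at 628.3, 1263, 2012 and 682.2 in SNL, and at 1656, 1329 and 1414 with UNC0638. Sham and SNL covered the same range, each with replicate 3 highest. The difference of -0.10 (SE 0.37, adjusted p = 0.844) was not called, and its standard error was wider than that of Vamp1. The log2 ratio of Vamp1 to Vamp2 within a library lay between 2.62 and 4.10 in Sham, between 0.57 and 1.23 in SNL and between 1.62 and 2.24 with UNC0638, with no overlap between the groups. The 250 bases before the RefSeq start of each gene are shown because these paralogs differed. They are from build GRCr8, at chr4:159698644-159698893 (+) for Vamp1 and chr10:54292539-54292788 (+) for Vamp2, while the reads were aligned to rn4. Capitals mark the cAMP response element TGACGTCA, the palindrome bound by CREB, and the GC box GGGCGG of Sp1-family factors on either strand.
Vamp1: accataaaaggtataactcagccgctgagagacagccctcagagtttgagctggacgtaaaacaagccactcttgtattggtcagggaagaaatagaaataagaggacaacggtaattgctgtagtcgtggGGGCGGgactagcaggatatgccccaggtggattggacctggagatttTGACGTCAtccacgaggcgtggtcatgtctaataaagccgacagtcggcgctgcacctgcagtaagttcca
Vamp2: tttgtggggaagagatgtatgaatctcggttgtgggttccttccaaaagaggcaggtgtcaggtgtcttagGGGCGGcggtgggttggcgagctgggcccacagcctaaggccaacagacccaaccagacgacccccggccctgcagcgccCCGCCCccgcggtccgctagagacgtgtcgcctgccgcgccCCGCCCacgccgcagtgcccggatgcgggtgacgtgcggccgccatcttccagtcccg
The Vamp1 window held 1 cAMP response element and 1 GC box, and the Vamp2 window held 3 GC boxes. Among RefSeq windows of this length, the cAMP response element was in 2.91% of the 9358 windows of genes tested, and the GC box in 57.4%. Of the members tested, 64 had 66 windows, of which 3 (4.55%; Napa, Syn1 and Vamp1) held the cAMP response element and 45 (68.2%) a GC box. A match is a run of letters in these windows and not a measured site.

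Snap25, the plasma membrane SNARE of neuronal release, stood at 14320, 17130, 16590 and 14540 in Sham, at 3544, 4635, 7501 and 3410 in SNL, and at 9687, 5091 and 5297 with UNC0638. All ligated libraries lay below all Sham libraries. Snap25 fell by 1.78 (SE 0.26, adjusted p = 0.000295) after ligation, its difference of 0.50 (adjusted p = 0.195) between UNC0638 and SNL was not called, and with UNC0638 it remained below Sham (difference -1.29, adjusted p = 0.00291). Stx1a, the syntaxin partner of SNAP-25 at the plasma membrane, stood at 330.3 to 480 in Sham, 429.5 to 554 in SNL and 279.9 to 360.5 with UNC0638. Its difference was 0.34 (adjusted p = 0.0635) for SNL against Sham, which was not called, and -0.67 (adjusted p = 0.00845) for UNC0638 against SNL, a call lost with the added term (difference -0.39, adjusted p = 0.0943).

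Stx11, a syntaxin of immune cells that cytotoxic lymphocytes need for granule release, had the highest difference of the SNARE group after ligation. Its scaled counts were 65.38, 70.44, 57.65 and 69.17 in Sham, 325.4, 358.8, 265.8 and 324.7 in SNL, and 87, 193.4 and 192.2 with UNC0638. The 3 groups did not overlap. Stx11 rose by 2.26 (SE 0.23, adjusted p = 0.000101) after ligation, and with UNC0638 it was lower than in SNL (difference -1.09, adjusted p = 0.00885) and higher than in Sham (1.16, adjusted p = 0.00261). With the added term the difference from SNL was -0.88 and not called (adjusted p = 0.0869). The remaining rises after ligation, of Stx4, Stx6, Vamp5 and Vamp8, were of 0.37 to 0.80. The remaining falls, of Vamp4, Vamp7, Stx2, Stx12 and Stx18, had differences of -0.68 to -0.46. With UNC0638, Stx3 and Stx16 were higher than in SNL (0.91 and 0.70, adjusted p = 0.00864 and 0.00148) and than in Sham (0.87 and 0.45), and Stx2 was higher than in SNL (0.67, adjusted p = 0.0118).

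The values of immune cell markers are given here beside those of Stx11. Of 9 macrophage markers tested, 8 were higher in SNL than in Sham and 0 were lower (also at an unadjusted p under 0.05 and by limma-voom), with sums over the list of 1682 to 3724 in Sham, 10320 to 16940 in SNL and 7799 to 14170 with UNC0638. Among 5 lymphocyte markers tested, 4 were higher in SNL, with sums of 11.36 to 22.26 in Sham, 30.04 to 93.12 in SNL and 96.86 to 228.3 with UNC0638. With UNC0638, 1 of the 9 macrophage markers and 2 of the 5 lymphocyte markers were higher than in SNL and 0 were lower (also at an unadjusted p under 0.05 and by limma-voom). Without SNL plus UNC0638 replicate 1, 2 of each list were higher. In the main fit, 88.9% of the macrophage markers and 80% of the lymphocyte markers were called after ligation, against 48.2% of all genes tested. For UNC0638 against SNL the shares were 11.1% and 40%, against 27.8%. The part of immune cells in the values of Stx11 was not tested.

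The proteins that steer and recycle SNAREs fell in part. Of 13 tested, 2 rose and 5 fell after ligation (median -0.39), and with UNC0638 2 were higher and none was lower than in SNL. At an unadjusted p under 0.05 1 was lower (Stxbp6), and limma-voom called 1 lower (Cplx1). The counts were 3 and 1 without SNL plus UNC0638 replicate 1, and 4 and 1 without SNL replicate 3. In the main fit, 53.8% of the 13 were called after ligation and 15.4% with UNC0638, against 48.2% and 27.8% of all genes tested. Nsf, the ATPase that takes SNARE complexes apart, stood at 4243, 4490, 6943 and 3804 in Sham, at 1559, 2503, 3510 and 1287 in SNL, and at 4991, 3099 and 3000 with UNC0638. All SNL libraries lay below all Sham libraries, and the libraries with UNC0638 overlapped both. Nsf fell by 1.21 (SE 0.31, adjusted p = 0.00728) after ligation, and its difference of 0.81 with UNC0638 was not called (adjusted p = 0.087). Its adaptors Napb, the isoform of neurons, and Napa, the general isoform, fell by 0.88 and 0.60 (adjusted p = 0.00141 and 0.00576). With UNC0638 both remained below Sham (differences -1.05 and -0.60, adjusted p = 0.000817 and 0.00812).

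Cplx1, one of the complexins of neurons, was 7336 to 8777 in Sham, 4238 to 6662 in SNL and 3462 to 5495 with UNC0638. It fell by 0.56 (adjusted p = 0.0196) after ligation and was lower than in Sham with UNC0638 (difference -0.95, adjusted p = 0.00171). The call of Cplx1 after ligation was lost without Sham replicate 4, SNL replicate 1 or SNL replicate 4 (differences -0.53, -0.52 and -0.44, adjusted p = 0.0552, 0.054 and 0.0604). Cplx2, the other complexin found widely in neurons, had a difference of -0.39 (adjusted p = 0.0569) after ligation and one of -0.59 (adjusted p = 0.0129) between UNC0638 and Sham, which was -0.38 and not called with the added term (adjusted p = 0.127).

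Cplx3 and Stxbp2 were higher in SNL or with UNC0638. Cplx3, the complexin known from ribbon synapses of the retina, stood at 22.26, 6.816, 37.4 and 21.52 in Sham, at 15.99, 14.58, 22.53 and 22.8 in SNL, and at 68.16, 83.54 and 69.66 with UNC0638. The libraries with UNC0638 lay above all the others. The difference was 1.92 (SE 0.44, adjusted p = 0.00864) against SNL and 1.90 (adjusted p = 0.00384) against Sham, with -0.02 (adjusted p = 0.969) between SNL and Sham. With the added term the first 2 were 1.32 and 1.30 and not called (adjusted p = 0.109 and 0.0513). Stxbp2, a SNARE regulator of immune and epithelial cells, rose by 1.05 (adjusted p = 0.00304) after ligation, from 23.86 to 40.51 in Sham to 60.07 to 76.19 in SNL, and stood at 69.96 to 120 with UNC0638. Its difference between UNC0638 and SNL of 0.56 was not called (adjusted p = 0.107). Stxbp6 rose by 0.73 and Stxbp5, the SNARE inhibitor tomosyn, fell by 0.49 after ligation (adjusted p = 0.0264 and 0.00699), and Stxbp5 was higher by 0.75 with UNC0638 than in SNL (adjusted p = 0.00275).

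At the active zone, the Munc13 paralogs Unc13c and Unc13b changed in opposite directions after ligation. Of 8 genes tested there, 1 rose and 3 fell after ligation (median -0.38), and with UNC0638 3 were higher and none was lower than in SNL (median 0.71; 0 lower at an unadjusted p under 0.05 and by limma-voom). Without SNL plus UNC0638 replicate 1 there were 2 higher, and without SNL replicate 3 there were 5. In the main fit, 50% of the 8 were called after ligation and 37.5% with UNC0638, against 48.2% and 27.8% of all genes tested. Unc13c, which encodes the Munc13-3 first known from the cerebellum, stood at 1060, 1040, 983.2 and 1131 in Sham, at 80.89, 145.3, 313.1 and 138.6 in SNL, and at 1161, 645.1 and 602.4 with UNC0638. The SNL libraries lay below all the others. Unc13c fell by 2.80 (SE 0.33, adjusted p = 0.000134) after ligation and was higher by 2.34 (SE 0.36, adjusted p = 0.00148) with UNC0638. Its difference of -0.46 (adjusted p = 0.307) between UNC0638 and Sham was not called.

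Unc13b, which encodes the widely expressed Munc13-2, stood at 129.4, 88.61, 96.61 and 98.38 in Sham, at 158, 167.2, 165.2 and 165.1 in SNL, and at 259.2, 312.5 and 301.9 with UNC0638. The 3 groups did not overlap and were ordered Sham, SNL, SNL plus UNC0638. It rose by 0.68 (SE 0.14, adjusted p = 0.00196) after ligation and by a further 0.82 (SE 0.15, adjusted p = 0.00286) with UNC0638, and was 1.50 (SE 0.15, adjusted p = 6.14e-05) above Sham. The log2 ratio of Unc13c to Unc13b within a library lay between 3.02 and 3.54 in Sham, between -0.96 and 0.92 in SNL and between 0.99 and 2.16 with UNC0638. Unc13d, the Munc13-4 of granule release in blood cells, was 37.49 to 77.91 in Sham, 65.67 to 91.24 in SNL and 105.8 to 134.6 with UNC0638. It was called between UNC0638 and Sham alone (1.07, adjusted p = 0.00488). Unc13a, the main Munc13 of brain synapses, was at 1.558 in Sham replicate 3 and at 0 in the other libraries.

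Unc13c and Unc13b are a second pair of paralogs that differed, as they changed in opposite directions after ligation. Their windows are at chr8:83553823-83554072 (−) for Unc13c and chr5:62084787-62085036 (+) for Unc13b in GRCr8, with capitals as above.
Unc13c: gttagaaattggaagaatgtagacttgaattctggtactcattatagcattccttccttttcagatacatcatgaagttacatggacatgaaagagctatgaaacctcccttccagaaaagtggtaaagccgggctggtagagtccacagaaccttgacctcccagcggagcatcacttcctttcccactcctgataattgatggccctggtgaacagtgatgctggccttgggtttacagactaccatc
Unc13b: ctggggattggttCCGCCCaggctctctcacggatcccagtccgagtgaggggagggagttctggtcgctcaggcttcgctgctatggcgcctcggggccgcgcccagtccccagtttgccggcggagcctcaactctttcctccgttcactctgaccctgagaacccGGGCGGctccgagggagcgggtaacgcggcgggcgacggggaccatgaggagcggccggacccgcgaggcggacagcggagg
The Unc13c window held neither motif, and the Unc13b window shown held 2 GC boxes and no cAMP response element. Their shares of G and C were 45.2% and 70%, against 50.4% for Vamp1 and 68% for Vamp2. A second Unc13b start in RefSeq has its window at chr5:62245379-62245628 (+), with 1 GC box, no cAMP response element and a G and C share of 54.8%.

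Rims1, an active zone scaffold that binds Rab3 and calcium channels, stood at 645.5, 663.5, 995.7 and 551.1 in Sham, at 163.7, 314.7, 465.5 and 156 in SNL, and at 969.5, 629.7 and 514.7 with UNC0638. All SNL libraries lay below all the others. Rims1 fell by 1.49 (SE 0.34, adjusted p = 0.00398) after ligation, and was higher by 1.45 (SE 0.37, adjusted p = 0.0143) with UNC0638 than in SNL. That difference of Rims1 was 1.20 and not called without SNL plus UNC0638 replicate 1 (adjusted p = 0.0564), and 0.74 and not called with the added term (adjusted p = 0.173). Rims3, a short RIM, fell by 0.91 after ligation (adjusted p = 0.0154). Bsn, which encodes the scaffold Bassoon, stood at 1806, 1121, 5544 and 1363 in Sham and at 705.4, 2403, 3994 and 850.9 in SNL. Replicate 3 was the highest of both groups, and the difference of -0.35 (SE 0.58, adjusted p = 0.638) was not called.

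Of 6 genes of vesicle membrane proteins tested, 4 fell after ligation and none rose, with a median of -0.93. At an unadjusted p under 0.05 0 were higher, and limma-voom called Sv2a higher. Sv2a and Syngr3 had differences of 0.29 and 0.05 and were not called. Without Sham replicate 3, 2 of the 6 fell, and 6503 of all 12066 genes were called. In the main fit, 66.7% of the 6 were called after ligation and 16.7% with UNC0638, against 48.2% and 27.8% of all genes tested. With UNC0638, limma called none higher and 1 lower than in SNL (2 lower without SNL plus UNC0638 replicate 1), while Sv2b and Sv2c were higher at an unadjusted p under 0.05 and by limma-voom. Sv2b, a vesicle glycoprotein, stood at 8403, 8540, 7317 and 8327 in Sham, at 2323, 3168, 3634 and 2613 in SNL, and at 5534, 3190 and 3467 with UNC0638. All ligated libraries lay below all Sham libraries. Sv2b fell by 1.49 (SE 0.18, adjusted p = 0.000145) after ligation, with a difference of 0.45 (adjusted p = 0.11) between UNC0638 and SNL that was not called, and remained below Sham (difference -1.04, adjusted p = 0.00137). Syngr1, which encodes synaptogyrin, stood at 777.7, 743, 724.6 and 883.9 in Sham, at 323.6, 355, 412.2 and 315.6 in SNL, and at 384.8, 255.3 and 194.8 with UNC0638. All ligated libraries lay below all Sham libraries here too, with a fall of 1.16 (adjusted p = 0.000437) after ligation and a difference of -1.54 (adjusted p = 0.000181) between UNC0638 and Sham.

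Syp, which encodes synaptophysin, stood at 1989, 1817, 3696 and 1980 in Sham, at 900.1, 1548, 2133 and 804.4 in SNL, and at 2601, 1711 and 1485 with UNC0638. SNL replicate 3 overlapped Sham. The fall of 0.87 (SE 0.33, adjusted p = 0.045) became a difference of -0.63 that was not called without Sham replicate 3 (adjusted p = 0.112). The call was also lost without any 1 of Sham replicates 1, 2 and 4, SNL replicates 1 and 4, and SNL plus UNC0638 replicates 2 and 3, with differences of -0.97 to -0.66. Sv2a, the target of the drug levetiracetam, stood at 689.6 to 961.4 in Sham, 665.8 to 1217 in SNL and 633.4 to 671.4 with UNC0638, and was called in no comparison. Sv2c fell by 0.99 after ligation (adjusted p = 0.0213), and Syngr3 was lower with UNC0638 than in SNL (difference -0.70, adjusted p = 0.0112).

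Of the synapsins, which tether vesicles in the reserve pool, Syn2 fell after ligation and Syn1 and Syn3 were not called. Syn2 stood at 2098, 1997, 2880 and 2094 in Sham, at 1146, 1653, 2023 and 952.2 in SNL, and at 2180, 1490 and 1540 with UNC0638. SNL replicate 3 overlapped Sham, and Syn2 fell by 0.70 (SE 0.23, adjusted p = 0.0254). It was not called without Sham replicate 3, SNL replicate 1 or SNL replicate 4 (differences -0.58, -0.61 and -0.52, adjusted p = 0.0586, 0.0726 and 0.0754). Syn1 stood at 134.9, 79.53, 264.9 and 113 in Sham, at 46.09, 125.2, 194.5 and 52.9 in SNL, and at 166.8, 109.8 and 98.04 with UNC0638 (difference -0.60 for SNL against Sham, adjusted p = 0.304). Limma called 0 synapsins with UNC0638 (0 at an unadjusted p under 0.05; limma-voom called Syn3 higher).

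Among the Rab3 GTPases, which attach vesicles to the active zone, and their regulators, 3 of 7 tested fell after ligation and 1 rose, and 1, Rab3d, was lower with UNC0638 than in SNL. They made up 57.1% and 14.3% of the 7, against 48.2% and 27.8% of all genes tested. Rab3a, the most abundant form in brain, stood at 2465, 3046, 4201 and 2939 in Sham, at 957.5, 1405, 2185 and 788.9 in SNL, and at 2683, 1518 and 1410 with UNC0638. All SNL libraries lay below all Sham libraries, a fall of 1.33 (SE 0.31, adjusted p = 0.00433), and the difference of 0.54 (adjusted p = 0.238) with UNC0638 was not called. Rab3c fell by 1.48 (adjusted p = 0.000466), from 1083 to 1236 in Sham to 303.7 to 637.5 in SNL, and remained below Sham with UNC0638 (415.4 to 715.7, difference -1.17, adjusted p = 0.00281). Rab3ip and Rab3il1 encode exchange factors that activate Rab8 and interact with Rab3. Rab3ip fell by 1.09 (adjusted p = 0.000432) and Rab3il1 rose by 1.53 (adjusted p = 0.00375), the latter from 60.72 to 118.4 in Sham to 143.4 to 451.5 in SNL.

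The other Rab genes that share the prefix are GTPases of the Golgi, endosomes, lysosome-related organelles and cilia. Of these 10, 5 rose and 2 fell after ligation, with a median of 0.79, and with UNC0638 1 was higher and 5 were lower than in SNL, with a median of -0.68. Without SNL plus UNC0638 replicate 1, 1 was higher and 6 were lower, and 2538 of all 12066 genes were called. In the main fit, 70% of the 10 were called after ligation and 60% with UNC0638, against 48.2% and 27.8% of all genes tested. Rab32, a GTPase of lysosome-related organelles and mitochondria, stood at 61.21, 61.35, 85.7 and 63.79 in Sham, at 412, 308.2, 246.3 and 397.7 in SNL, and at 130, 343.5 and 313.5 with UNC0638. All ligated libraries lay above all Sham libraries, with a rise of 2.29 (SE 0.29, adjusted p = 0.000151) after ligation and a difference of -0.47 (adjusted p = 0.265) with UNC0638 that was not called. Rab31 stood at 1113, 864.6, 819.6 and 1048 in Sham, at 2485, 2077, 1676 and 2190 in SNL, and at 814.4, 983.9 and 1178 with UNC0638. The SNL libraries lay above all the others (1.13, adjusted p = 0.000234, and then -1.09, adjusted p = 0.00154).

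Rab34, Rab33b and Rab33a were also higher in SNL than in Sham, by 1.08, 1.02 and 0.69 (adjusted p = 0.000269, 0.000305 and 0.00147), and lower with UNC0638 than in SNL (differences -0.86, -0.80 and -1.21, adjusted p = 0.00411, 0.00519 and 0.000452). Rab36 went the other way. It stood at 134.9, 136.3, 162.1 and 136.8 in Sham, at 31.98, 54.87, 73.59 and 38.31 in SNL, and at 192.8, 143.9 and 121.3 with UNC0638. The SNL libraries lay below all the others, with a fall of 1.57 (SE 0.25, adjusted p = 0.000424) and a difference of 1.65 (SE 0.26, adjusted p = 0.00176) with UNC0638. Of the fibroblast markers, all 6 rose after ligation and 3 were lower with UNC0638 than in SNL (1 higher and 1 lower without SNL plus UNC0638 replicate 1). Their sums were 24040 to 33730 in Sham, 85910 to 217000 in SNL and 38020 to 93260 with UNC0638. In the main fit, 100% of the 6 were called after ligation and 50% with UNC0638, against 48.2% and 27.8% of all genes tested. The part of fibroblasts in the values of the Rab genes was not tested.

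**Figure D3:**
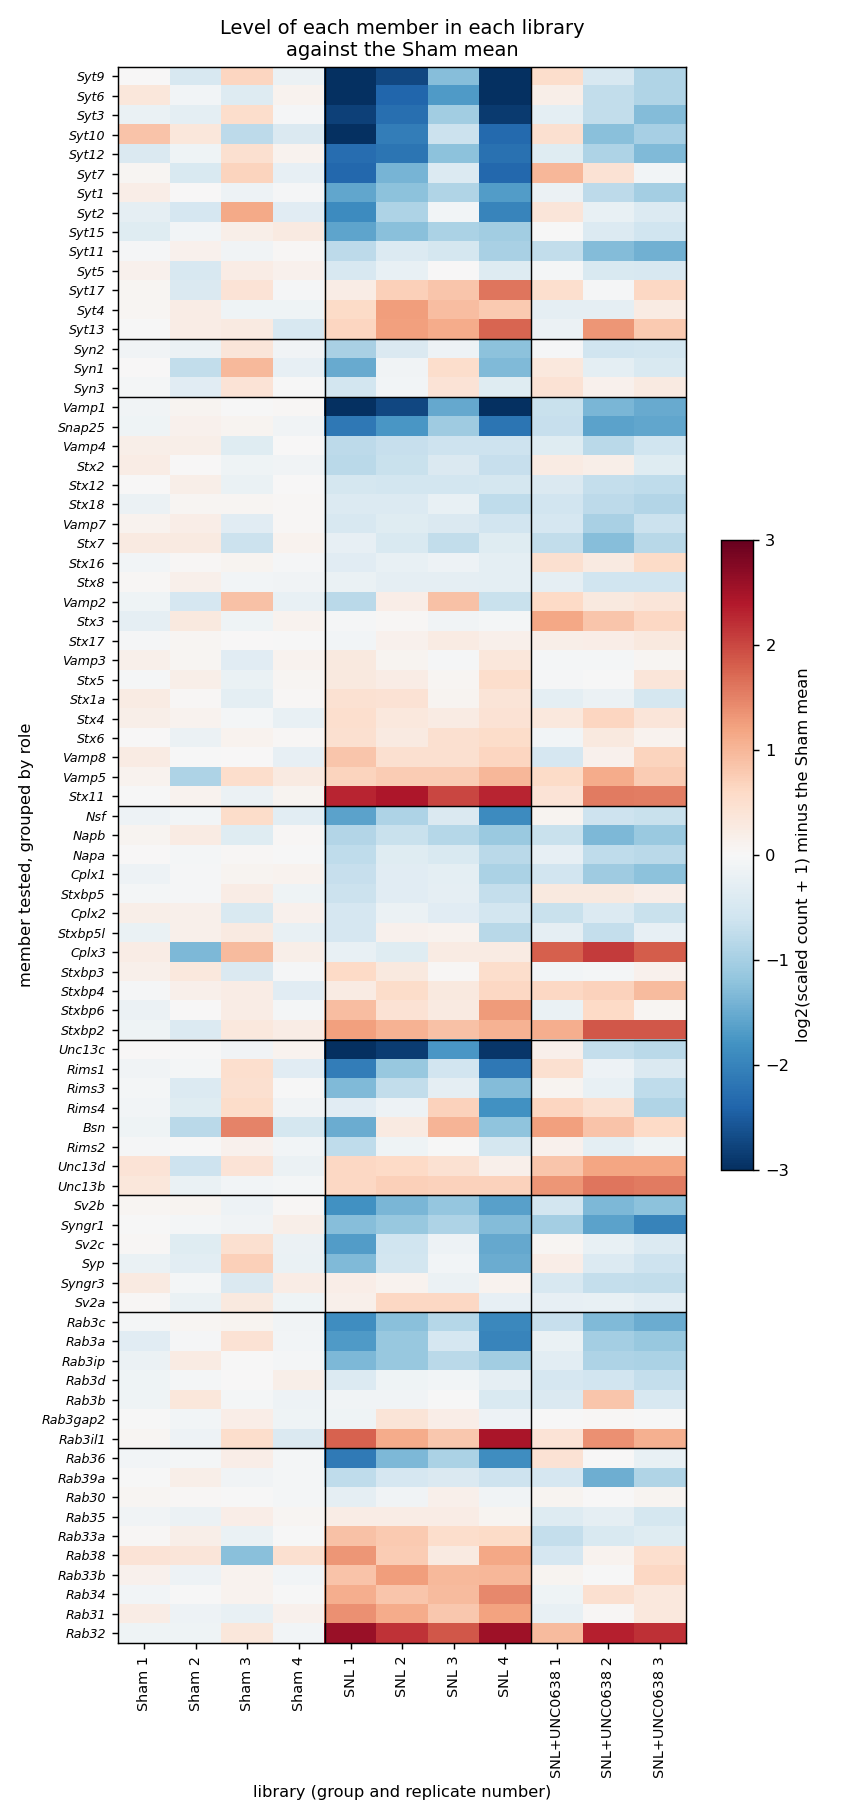
Level of 81 of the 83 members tested (rows, grouped by role in the order of the plot of log2 differences) in each of the 11 libraries (columns), as log2(scaled count + 1) minus the Sham mean; colours stop at -3 and 3. Blue rows such as Syt9, Vamp1 and Unc13c are darkest in SNL replicates 1, 2 and 4 and lighter in SNL replicate 3 and in the libraries with UNC0638.

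A core set of neuronal release genes (among them Syt1, Syt2, Syn1, Syn2, Syp, Snap25, Stx1a, Vamp1, Vamp2, Sv2a, Rab3a, Cplx1, Cplx2, Rims1, Bsn and Unc13a) gives the level of the machinery in each library. Of its 17 genes tested, 9 fell and none rose after ligation, with a median of -0.70. Without Sham replicate 3, 7 fell. At an unadjusted p under 0.05 1 rose (Stx1a), and limma-voom called 2 higher (Stx1a and Sv2a). The summed scaled counts were 53850, 57110, 76700 and 55620 in Sham, 19960, 30760, 43940 and 18430 in SNL, and 51640, 33970 and 31380 with UNC0638. Snap25 and Vamp1 weigh most in the Sham sums, with Sham means of 15650 and 12390. By these sums, all SNL libraries lay below all Sham libraries, and SNL replicate 3 lay above SNL plus UNC0638 replicates 2 and 3. By the median over the set of log2(scaled count + 1) minus the Sham mean, the groups overlapped: SNL replicate 3 stood at -0.09, above Sham replicates 1, 2 and 4 at -0.12, -0.17 and -0.12. With UNC0638, 3 of the 17 were higher and 1 was lower than in SNL. These counts became 1 and 2 without SNL plus UNC0638 replicate 1, 8 and 1 without SNL replicate 3, 10 and 1 without Sham replicate 3 and SNL replicate 3, and 0 and 1 with the added term. The 23 genes of general trafficking had a median of 0.11 after ligation, and with UNC0638 3 were higher and 1 was lower than in SNL (4 and 1 without SNL plus UNC0638 replicate 1). In the main fit, 52.9% of the core set and 56.5% of the trafficking genes were called after ligation, against 48.2% of all genes tested. For UNC0638 against SNL the shares were 23.5% and 17.4%, against 27.8%.

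The markers of neurons moved with ligation as well. Of 13 general neuronal markers, 3 rose and 7 fell after ligation, and with UNC0638 none was higher and 6 were lower than in SNL (Isl1 was higher at an unadjusted p under 0.05, and Isl1 and Map2 by limma-voom). Their sums were 160500 to 189100 in Sham, 174100 to 219800 in SNL and 97960 to 112000 with UNC0638, and none was at 0 in all libraries. Abundant genes weigh most in these sums: Tubb3 alone had means of 55670, 78530 and 33360 in the 3 groups. The median difference of the 13 markers was -0.39 after ligation and -0.11 between UNC0638 and SNL. The 8 nociceptor markers all fell after ligation and 4 were higher with UNC0638 than in SNL, with sums of 47380 to 59950, 7551 to 17760 and 20990 to 41750 in the 3 groups. Of 5 markers of large-diameter neurons, 4 fell after ligation and 2 were higher with UNC0638 (none without SNL plus UNC0638 replicate 1), with sums of 223400 to 356700, 41440 to 122400 and 84430 to 172800. After ligation, 76.9%, 100% and 80% of the general, nociceptor and large-diameter markers were called, against 48.2% of all genes tested. For UNC0638 against SNL the shares were 46.2%, 50% and 40%, against 27.8%. Of the cells around the neurons, 3 of 7 Schwann cell markers and 4 of 4 endothelial markers rose after ligation. Of 6 satellite glia markers, 2 rose and 3 fell. The shares called in these lists were 42.9%, 100% and 83.3%, against 48.2% of all genes tested. Rbfox3, which encodes the neuronal nuclear protein NeuN, fell by 1.95 (adjusted p = 0.00355) after ligation and differed by 0.39 (adjusted p = 0.549) with UNC0638. Uchl1, an abundant neuronal enzyme, fell by 0.40 (adjusted p = 0.0406) and was lower with UNC0638 than in SNL (difference -0.86, adjusted p = 0.00315). The part of neuron number and neuron type in the values of the release genes was not tested. Rest, a repressor of neuronal genes with binding sites in several synaptic genes, rose by 1.27 (adjusted p = 0.000251) after ligation and differed by -0.01 (adjusted p = 0.965) between UNC0638 and SNL.

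**Figure D4:**
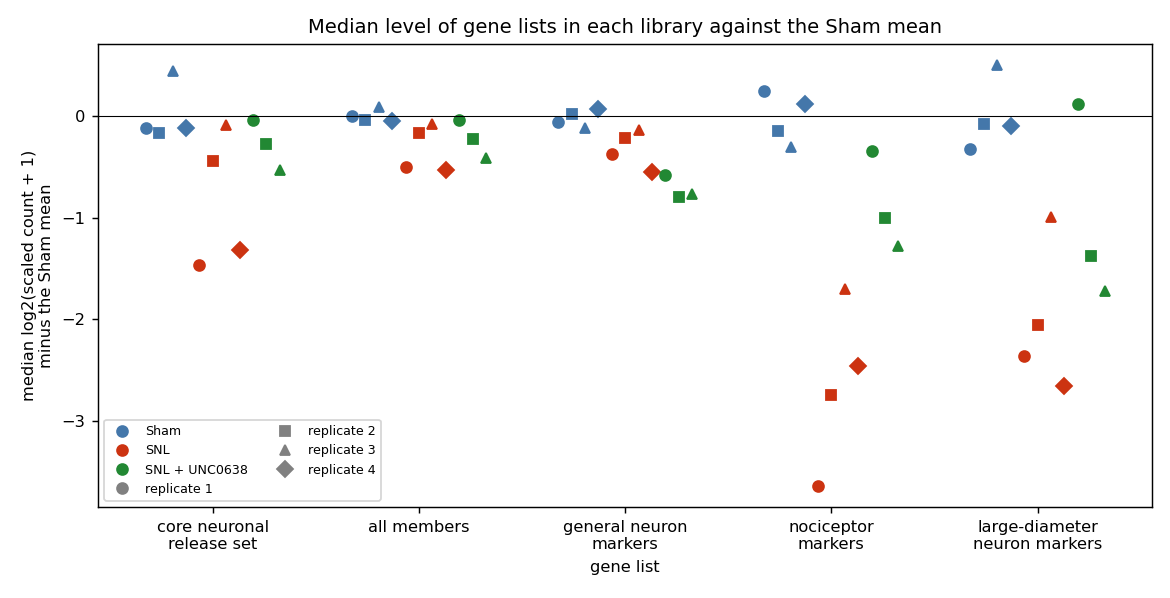
Median over 5 gene lists of log2(scaled count + 1) minus the Sham mean (y axis) in each library, with colour for the group and symbol for the replicate number. For the core release set the SNL libraries lie at -1.47, -0.44, -0.09 and -1.32 and those with UNC0638 at -0.04, -0.28 and -0.53, while the general neuron markers lie lower with UNC0638 than the core set does.

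Other genes of the release pathway, from lists outside the members, were called as follows. Of 32 further release genes, 7 rose and 14 fell after ligation, and 5 were higher and 3 lower with UNC0638 than in SNL (2 and 4 without SNL plus UNC0638 replicate 1). In the main fit these were 65.6% and 25% of the 32, against 48.2% and 27.8% of all genes tested. Doc2a, a calcium sensor of spontaneous and asynchronous release, stood at 160, 171.5, 177.6 and 170.6 in Sham, at 7.525, 6.859, 41.3 and 4.56 in SNL, and at 117.5, 91.28 and 58.05 with UNC0638. The 3 groups did not overlap, with differences of -3.93 (adjusted p = 0.000173) and 2.95 (adjusted p = 0.00357). Rab27b, a GTPase of dense-core vesicle docking, had differences of -2.80 (adjusted p = 0.000103) and 1.85 (adjusted p = 0.00232). Snap47 fell by 0.77 after ligation (adjusted p = 0.000181).

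Of 5 vesicular transporters tested, 2 rose and 2 fell after ligation, and 1 was higher and 1 lower with UNC0638 (1 and 0 without SNL plus UNC0638 replicate 1). In the main fit, 80% of the 5 were called after ligation and 40% with UNC0638, against 48.2% and 27.8% of all genes tested. Slc17a7, the glutamate transporter VGLUT1 of large-diameter afferents, fell by 1.53 (adjusted p = 0.00542). Slc17a8, the glutamate transporter VGLUT3, fell by 2.82 (adjusted p = 0.000606) and was higher by 2.16 with UNC0638 (adjusted p = 0.0102). Slc18a2, the monoamine transporter, rose by 0.67 (adjusted p = 0.00594) and was lower with UNC0638 (difference -0.66, adjusted p = 0.0178). Of 11 genes of dense-core vesicles, which carry neuropeptides, 6 fell and 1 rose after ligation, and 1 was higher and 1 lower with UNC0638. These made up 63.6% and 18.2% of the 11, against 48.2% and 27.8% of all genes tested. The granins Scg2 and Chga fell by 3.20 and 2.08 (adjusted p = 0.000101 for both), and Scg5, a chaperone of a prohormone convertase, fell by 1.25 (adjusted p = 0.000172). Scg2 was higher by 1.59 with UNC0638 (adjusted p = 0.00748), and the amidating enzyme gene Pam was lower (difference -0.36, adjusted p = 0.0307).

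Of 22 genes of vesicle endocytosis, 4 rose and 10 fell after ligation, and 2 were higher and 5 lower with UNC0638 (0 and 3 without SNL plus UNC0638 replicate 1). Amph, which encodes amphiphysin, fell by 1.72 (adjusted p = 0.000106), the dynamin gene Dnm3 by 1.53 (adjusted p = 0.00206) and the AP-2 adaptor gene Ap2b1 by 0.69 (adjusted p = 0.00123). With UNC0638, Cltb (a clathrin light chain), Ap2m1 and Bin1 had differences of -0.76, -0.63 and -0.66 from SNL (adjusted p = 0.00146, 0.00392 and 0.0131). Of 8 exocyst subunits, which tether vesicles to the membrane in all cells, 4 fell and none rose after ligation (0 at an unadjusted p under 0.05 and by limma-voom). Exoc3, Exoc6 and Exoc7 had differences of -0.47, -0.54 and -0.26 (adjusted p = 0.00352, 0.0296 and 0.034). With UNC0638, Exoc2 was higher (0.31, adjusted p = 0.0386) and Exoc5 lower (difference -0.67, adjusted p = 0.0132) than in SNL, and without SNL plus UNC0638 replicate 1 none was higher and 1 was lower. In the main fit, 63.6% of the endocytosis genes and 50% of the exocyst subunits were called after ligation, against 48.2% of all genes tested. For UNC0638 against SNL the shares were 31.8% and 25%, against 27.8%.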

How the data were processed

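Total RNA of the ganglia was extracted with Trizol or RNeasy (the reagent of each sample was not given in the sources used here). Ribosomal RNA was removed, and stranded libraries from 1 ug of RNA were sequenced as single-end reads, per the labels' protocols. TopHat2 2.0.9, Cuffdiff 2.1.1 and build rn4 are named in the submitters' processing notes. Annotation, use of strand and treatment of reads shared between paralogs were not given in the sources used here. Near-identical or overlapping genes are therefore uncertain. The deposited signal is a gene count to which the authors applied 1 factor per library, as read from the values: 98.7% to 99.4% of the low values of a library (up to 20 steps) were within 0.01 steps of a whole multiple. The step, 0.429 to 1.56, was taken as 1 read to estimate reads.

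Of 16811 genes, 24 with names altered to dates were left out, and the 12066 that reached 10 in 3 or more libraries were tested. limma 3.58.1 (R 4.3.3, statmod 1.5.0) was fitted to log2(value + 1), all 11 libraries in 1 model of group means, then eBayes (trend, robust), two-sided, Benjamini-Hochberg over all genes, called at adjusted p under 0.05. Fold changes of low genes are understated by the added 1. On simulated data for SNL against Sham (11939 genes), the fit called 89% of 100 genes with a log2 change of 1 and 100% of those with 2. The share it would call among the members, with their own spread between libraries, was not tested. The members, roles, lists and doubted libraries were chosen with earlier results of these data known. Named were the core set, other members called with a log2 difference of at least 1 in any comparison, and per pathway list the 3 called genes with the smallest p in each of the first 2 comparisons. Members outside this rule were named after their values were seen. A few genes that enter the counts, sums and medians are not reported here by name. Same-numbered libraries did not deviate together in every pair (correlation over genes of deviations from the group means, -0.446 to 0.43), so the numbers were not taken as pairs. Alternatives were 3 other scalings, 2 pseudocounts, 2 filters, limma-voom on estimated reads, eBayes without robust estimates, 2 groups alone, the replicate number as a block, a stricter threshold, leaving out each library, leaving out Sham replicate 3 and SNL replicate 3, and a term for these and all libraries with UNC0638. Promoter windows are RefSeq sequences of build GRCr8, 250 bases before the start, matched by symbol.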

Additional observations from a re-analysis of the deposited data

Results flagged for a closer look

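In groups of 4 libraries, a member was listed where the gap of the highest or lowest library to its neighbour, over the whole range of the group, was above Dixon's 95% critical value. Chance gives about 1 such group in 20. Of the 162 groups looked at (81 members in Sham and in SNL), 12 passed (7.41%), and 8 of them were set by Sham replicate 3. Sham replicate 3 was the highest for Bsn (gap over range 0.845), Rab32 (0.895), Rab36 (0.931), Syn2 (0.886), Syp (0.908) and Syt2 (0.913). It was the lowest for Cplx2 (0.897) and Rab38 (0.897). SNL replicate 3 was the highest for Syt12 (0.935) and Vamp1 (0.854). Rab35 was lowest in SNL replicate 4 (0.921), and Stx18 was lowest in Sham replicate 1 (0.861). The cause was not tested.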

How the results depend on the processing

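Over all alternatives, the number of members called lower stayed within 1.5 times the main count in each comparison. With limma-voom on estimated reads, 26 members were higher in SNL than in Sham (median -0.18) and 21 were higher with UNC0638 than in Sham (median 0.07, the opposite sign of the main -0.10); that fit also shifted the medians of all genes to 0.07, 0.13 and 0.19 in the 3 comparisons. For UNC0638 against SNL, 11 members were higher at an adjusted p under 0.01, 30 without Sham replicate 3 and SNL replicate 3, and 7 with a term that sets these and all libraries with UNC0638 apart (7 lower, median -0.04, again with the sign turned). That term also moved the median for UNC0638 against Sham to -0.49. The members called higher with it were Rab36, Stx16, Stx3, Stxbp5, Syt6, Unc13b and Unc13c, and those called lower Rab31, Rab33a, Rab33b, Rab34, Rab35, Sv2a and Syt4. Leaving out 1 library at a time gave medians of -0.43 to -0.22 for SNL against Sham (-0.22 without SNL replicate 1 or Sham replicate 3). For UNC0638 against SNL, 13 to 27 members were higher. There were 27 without SNL replicate 3, and 13 without SNL replicate 1 or SNL plus UNC0638 replicate 1 or 2. For UNC0638 against Sham the medians were -0.29 to -0.07 (-0.29 without SNL plus UNC0638 replicate 1, -0.26 without Sham replicate 2). With the replicate number as a block, which the pairing check did not bear out, the median for UNC0638 against Sham was -0.27, and 14 members were higher and 10 lower for UNC0638 against SNL, where 2123 of all genes were called. Over all genes, 3351 were called for UNC0638 against SNL in the main fit. There were 1303 at an adjusted p under 0.01 and 1285 with the added term. There were 5337 without Sham replicate 3 and SNL replicate 3, 4023 without SNL replicate 3 and 2538 without SNL plus UNC0638 replicate 1. The counts were 2075 without SNL replicate 1, 2094 without SNL plus UNC0638 replicate 2 and 2257 without SNL replicate 2. At an adjusted p under 0.01, 3772 of 5814 genes were called for SNL against Sham and 4120 of 6211 for UNC0638 against Sham. Of 3369 values of the 45 named members under alternatives, 92 lost their call, 99 gained one and no called value changed sign. Of the named members, 29 of 35 called for SNL against Sham, 8 of 19 for UNC0638 against SNL and 13 of 19 for UNC0638 against Sham were called under every alternative run. Syp and Syt2 lost their call after ligation in 12 and 9 of 25 alternatives, with differences there of -0.97 to -0.63 and -1.34 to -0.84. A count test with edgeR was not run: between 98.7 and 99.4% of a library's low values were whole multiples of 1 read, the few others being fractional, and limma-voom on estimated reads stood in its place. At the estimated depth, 1 read is worth 0.429 to 1.56, so that Syt10, Cplx4, Unc13a and Syt8 rest on few reads. The labels do not tie the extraction reagent to libraries.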
